A study of Mus musculus with 23 samples.

Results

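The genes described here are 10 members of the interleukin-1 and inflammasome system: the cytokines Il1a, Il1b, Il6 and Il18, the antagonists Il1rn and Il18bp, the sensor Nlrp3, the proteases Casp1 and Casp4, and the pore former Gsdmd. They were taken as a list of symbols, and all 10 were found among the 26869 genes of the expression matrix by matching Ensembl identifiers to GENCODE. Transcripts were measured by bulk RNA sequencing in 23 tumors of MC38, a mouse colon carcinoma line, from 6 host lines. The hosts were 8 to 12 week old female F1 mice from a C57BL/6J and a Collaborative Cross (CC) parent, so that all carried a C57BL/6J genome copy while the other copy was a mosaic of founder strains. CC001F1, CC002F1 and CC075F1 are the responder (R) lines, and CC036F1, CC079F1 and CC080F1 are the non-responder (NR) lines. The classes are those of the study's text; the sample labels name the lines but give no class. After MC38 cells had been placed under the skin and tumors had grown to 75 to 110 mm3, a 200 µg dose of anti-PD-1 (aPD1) or of isotype antibody was given, and the tumors were taken 48 h later. There were 2 tumors for each line and antibody, but a single aPD1 tumor for CC080F1, giving 6 R isotype, 6 R aPD1, 6 NR isotype and 5 NR aPD1 tumors. Each class rests on 3 lines, and each F1 line is 1 genotype.

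Interleukin-1 alpha and interleukin-1 beta act through the same receptor, and the protein of Il1rn occupies that receptor without signaling. Interleukin-1 beta and interleukin-18 are made as inactive precursors. When a sensor such as NLRP3 assembles an inflammasome, caspase-1 cuts both precursors and gasdermin D, whose released fragment opens pores in the plasma membrane and allows their exit. Caspase-11, encoded by mouse Casp4, senses bacterial lipopolysaccharide in the cytosol and also cuts gasdermin D. The protein of Il18bp binds interleukin-18 outside the cell and blocks it, and interleukin-6 is a cytokine that cells release in response to interleukin-1. In tumors these genes are known mainly from macrophages, monocytes and neutrophils. Cutting and release happen to proteins and were not measured here.

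Library totals ran from 14494014 to 71868253 expected counts, with 17 deep and 6 shallow libraries split at 30000000. Values are given below as normalized counts, that is counts divided by the DESeq2 size factor of the library. Shisal2b, taken as a marker of MC38 cells, was present in every tumor, at 460 to 1138 normalized counts. The summed level of 8 macrophage markers ran from 53412 to 168235, and that of 5 skeletal muscle markers from 12.7 to 19465. CC001F1 aPD1 replicate 1 stood apart: ribosomal RNA-like genes took 10.0% of its counts, the most of any library (lowest 1.73%), and it had the highest skeletal muscle sum. CC080F1 isotype replicate 2 came next in the ribosomal share, at 9.26%, and had a muscle sum of 7452. CC080F1 aPD1 replicate 1 had a B cell marker sum of 3142, against at most 972 in any other tumor. Results that rest on CC001F1 aPD1 replicate 1 are given with and without it, and the part of muscle or RNA quality in them was not tested.

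The members lie on 6 chromosomes in GRCm38. Il1a (ENSMUSG00000027399, chr2:129299610-129309972) and Il1b (ENSMUSG00000027398, chr2:129364570-129371139) are neighbours on the minus strand with 54597 bases between them, and Il1rn (ENSMUSG00000026981, chr2:24336853-24351494) is on the plus strand of the same chromosome. Casp1 (ENSMUSG00000025888, chr9:5298517-5307265) and Casp4 (ENSMUSG00000033538, chr9:5308828-5336783) follow each other on the plus strand with 1562 bases between them, and Il18 (ENSMUSG00000039217, chr9:50554827-50581840) is also on chromosome 9. Nlrp3 (ENSMUSG00000032691) lies at chr11:59541568-59566956, Gsdmd (ENSMUSG00000022575) at chr15:75862327-75867408, Il6 (ENSMUSG00000025746) at chr5:30013114-30019981 and Il18bp (ENSMUSG00000070427), on the minus strand, at chr7:102014885-102018690. RefSeq start sites in GRCm38.p6 gave 13 upstream windows of 250 bases for 9 of the 10 members. These windows were searched on both strands for the interferon-gamma activated site (GAS, TTCNNNGAA), the interferon-stimulated response element (ISRE, GAAANNGAAA) and the kappa B motif. GAS was present in 7.02%, ISRE in 2.98% and kappa B in 7.25% of 32841 windows of the same length over all genes. The 5 members that passed the test under aPD1 in R lines (described below) are shown 5′ to 3′, ending at the base before the start site, with kappa B matches in capitals.
Il1b (chr2:129371140-129371389, - strand): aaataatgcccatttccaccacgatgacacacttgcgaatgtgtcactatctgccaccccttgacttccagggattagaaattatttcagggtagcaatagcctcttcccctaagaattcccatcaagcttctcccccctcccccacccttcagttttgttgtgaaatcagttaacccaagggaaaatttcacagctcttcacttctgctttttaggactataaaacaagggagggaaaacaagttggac
Il18bp (chr7:102018233-102018482, - strand): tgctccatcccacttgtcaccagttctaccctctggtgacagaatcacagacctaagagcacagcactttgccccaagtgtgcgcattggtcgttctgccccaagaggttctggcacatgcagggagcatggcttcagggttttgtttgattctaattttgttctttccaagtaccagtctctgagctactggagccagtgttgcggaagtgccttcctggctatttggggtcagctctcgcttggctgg
Nlrp3 (chr11:59541319-59541568, + strand): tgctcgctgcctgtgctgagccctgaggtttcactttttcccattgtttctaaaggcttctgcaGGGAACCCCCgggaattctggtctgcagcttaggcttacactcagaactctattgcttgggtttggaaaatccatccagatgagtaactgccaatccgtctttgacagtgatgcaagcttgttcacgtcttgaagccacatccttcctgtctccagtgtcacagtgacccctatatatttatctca
Casp1 (chr9:5298267-5298516, + strand): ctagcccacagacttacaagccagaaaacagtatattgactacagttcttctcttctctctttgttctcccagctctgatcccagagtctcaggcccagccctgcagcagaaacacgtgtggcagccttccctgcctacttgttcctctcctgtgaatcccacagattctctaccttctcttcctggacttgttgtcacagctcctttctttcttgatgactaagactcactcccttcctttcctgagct
Casp4 (chr9:5308599-5308848, + strand): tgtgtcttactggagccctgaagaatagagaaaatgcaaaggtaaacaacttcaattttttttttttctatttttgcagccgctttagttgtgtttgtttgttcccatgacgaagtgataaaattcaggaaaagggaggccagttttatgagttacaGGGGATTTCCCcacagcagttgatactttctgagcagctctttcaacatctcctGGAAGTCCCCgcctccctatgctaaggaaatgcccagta
No window of the members held the GAS or ISRE letters. The Il18bp window follows the RefSeq start and lies inside the gene span given above. The bases before the start of that span, at 102018690 on the minus strand, were not searched. Casp4 held 3 kappa B matches, of which GGGGATTTCC and GGGATTTCCC share all but 1 base at either end and begin 93 and 92 bases before the start, and GGAAGTCCCC begins 39 bases before it. The upstream one of the Nlrp3 windows, printed here, held GGGAACCCCC, 186 bases before the start, and the other Nlrp3 window held none. Il6 held GGGATTTTCC, 44 bases before its start. A second Casp4 window, shifted by 11 bases, held the same matches.

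Levels of the 10 genes spanned a wide range when counts were divided by exon length and library total (FPKM, fragments scaled by exon length and library total). Casp1 was highest, with a mean of 25.4 FPKM over the 23 tumors, followed by Gsdmd at 18.9. Casp4 (6.57), Il1rn (6.32), Il1b (5.08), Il18bp (4.73), Nlrp3 (3.23) and Il18 (2.12) formed a middle range. Il1a, at 0.733 FPKM, and Il6, at 0.115, were lowest. Il6 had 298 counts in all tumors together, 1 to 35 a tumor, so its differences were poorly resolved at this depth. The protease and pore genes varied least: the highest tumor was 1.57-fold above the lowest for Gsdmd, 1.65-fold for Casp1 and 2.12-fold for Casp4. Il1a spanned 15.3-fold, Il6 11.3-fold, Il18bp 7.12-fold, Il1rn 6.90-fold and Il1b 5.40-fold.

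**Figure D1:**
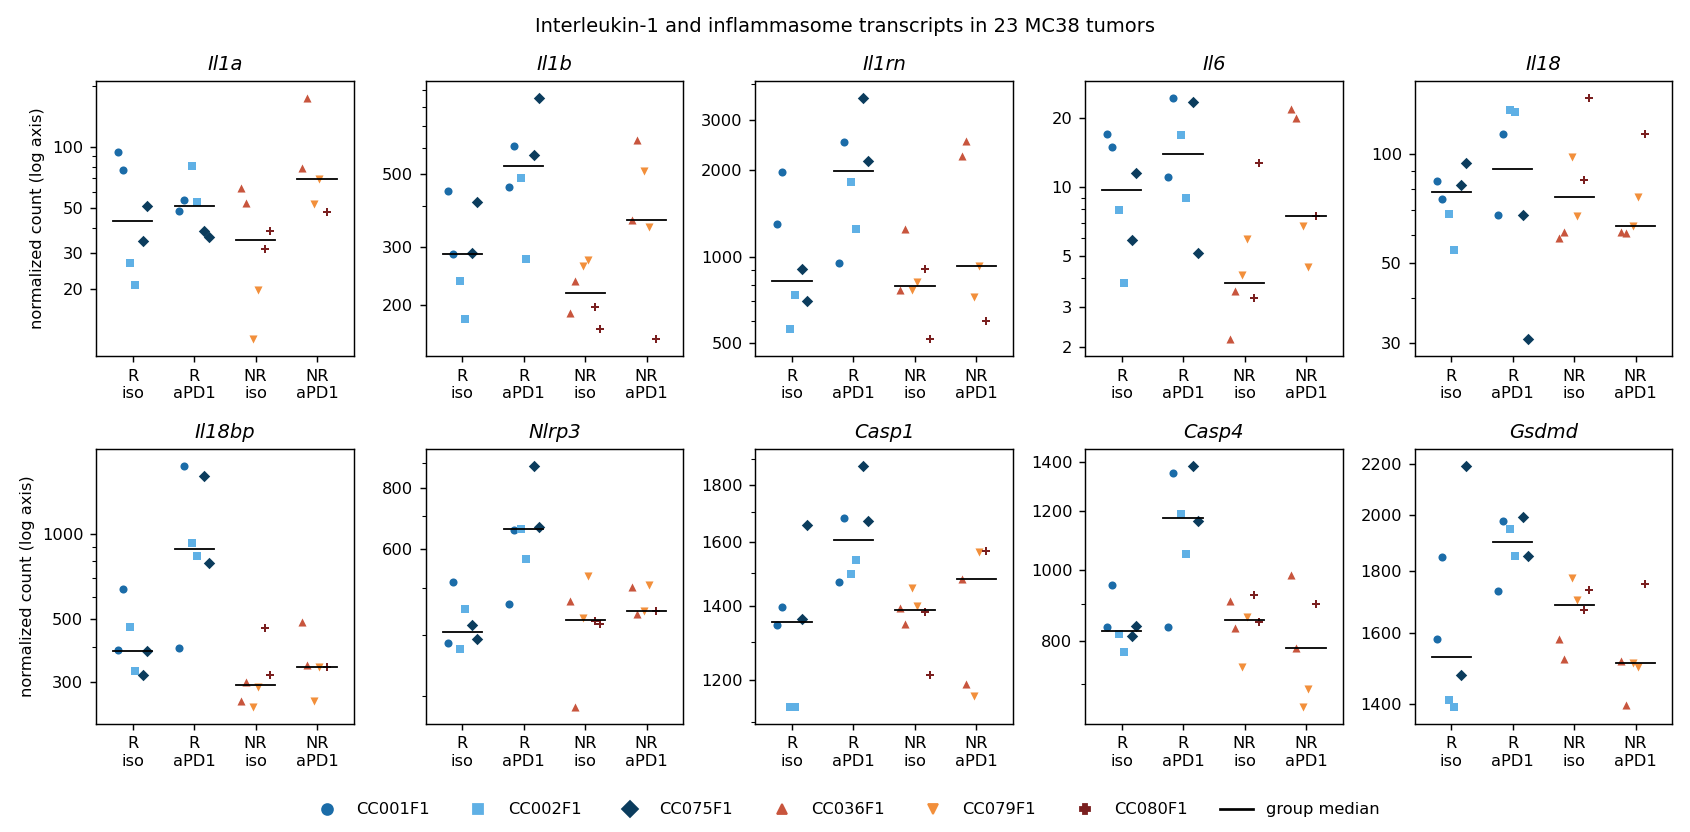
Normalized counts (log axis, a separate scale in each panel) of the 10 genes in 23 tumors, by class and antibody, with color and symbol for the host line and a bar for the group median. In the R aPD1 group Il18bp runs from 397 to 1742 and Casp4 from 838 to 1383, and in each case the lowest point is CC001F1 replicate 1.

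The first comparison asked whether the level depended on the host line. Il1b and Il18bp differed among the 6 lines in the DESeq2 likelihood ratio test with antibody as a term, with adjusted p values of 0.000628 and 0.0349, where 16% of all tested genes passed. Il1b averaged 529 ± 243 normalized counts (SD, n = 4) in CC075F1, 448 ± 131 in CC001F1, 355 ± 199 in CC036F1, 347 ± 114 in CC079F1, 294 ± 132 in CC002F1 and 174 ± 20.5 (n = 3) in CC080F1. Ranges of neighbouring lines in this order overlapped in each case, while all 3 CC080F1 tumors (157 to 197) lay below all 4 of CC075F1 (287 to 850). Il18bp averaged 791 ± 644 in CC001F1, 774 ± 591 in CC075F1 and 641 ± 288 in CC002F1, and its means in CC080F1, CC036F1 and CC079F1 were 374 ± 80.0, 348 ± 101 and 282 ± 41.7. The 3 R lines therefore held the first 3 places, with overlapping ranges between neighbours. These line means of Il1b and Il18bp pool isotype and aPD1 tumors. With isotype alone, Il18bp averaged 513 in CC001F1, 399 in CC002F1, 392 in CC080F1, 351 in CC075F1, 278 in CC036F1 and 266 in CC079F1. There the NR line CC080F1 came before the R line CC075F1. Of the other members, Il1a (adjusted p = 0.0558) and Il1rn (0.0758) came closest to the threshold. Without CC001F1 aPD1 replicate 1 these also passed, giving 4 members, where 16.5% of genes passed. For all 10 genes, neighbours in the order of line means overlapped. The mean of the highest line was 1.24-fold that of the lowest for Casp1, 1.25-fold for Gsdmd and 1.39-fold for Nlrp3. Il1b also passed in edgeR (adjusted p = 0.0231) and Il18bp did not (0.0598). With each of the 23 libraries left out in turn, Il1b passed in 23 fits and Il18bp in 13.

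The next comparison asked what aPD1 did within 48 h in R lines. Il18bp, Il1b, Nlrp3, Casp4 and Casp1 rose, Il1rn had a large estimate that did not pass, and Il1a, Il6, Il18 and Gsdmd did not pass. In the DESeq2 fit with host line as a term, 5 of 10 members rose and none fell, where 4.85% of all tested genes rose. The median log2 difference of the members was 0.53, against -0.01 over all genes. In these whole-tumor samples a change in the number of cells that make a transcript and a change in the transcript per cell cannot be told apart.

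Among the ligands, Il1b had 181 to 444 normalized counts in the 6 R isotype tumors (median 286) and 276 to 850 in the 6 R aPD1 tumors (median 526). Both aPD1 tumors lay above both isotype tumors in each of the 3 R lines, an order that was not counted over all genes. CC075F1 went from 287 and 410 to 569 and 850, CC002F1 from 237 and 181 to 484 and 276, and CC001F1 from 444 and 285 to 456 and 605. The difference was 1.73-fold (95% interval 1.34 to 2.24, DESeq2 adjusted p = 0.00279). Il1a moved in different directions among these lines: 94.1 and 77.3 with isotype against 48.6 and 54.8 with aPD1 in CC001F1, 26.7 and 20.95 against 80.3 and 53.8 in CC002F1, and 34.7 and 51.4 against 38.7 and 35.9 in CC075F1. Its fitted difference was 1.11-fold (0.696 to 1.78, adjusted p = 0.885). Il18 was split likewise, from 68.3 and 54.3 to 133 and 131 in CC002F1 but from 82.3 and 94.4 to 68.0 and 30.8 in CC075F1, and its fitted difference was 1.13-fold (0.755 to 1.69, adjusted p = 0.838). The value of 30.8 comes from 12 counts in a shallow library. Il6, at 3.81 to 16.99 with isotype and 5.13 to 24.5 with aPD1, differed by 1.61-fold (0.818 to 3.15) and was given no adjusted p by the filter of DESeq2 on low means (unadjusted p = 0.169 in DESeq2).

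Among the antagonists, Il18bp had the largest fitted rise of the members. It had 318 to 637 normalized counts with isotype (median 387) and 397 to 1742 with aPD1 (median 883) in R lines. In CC001F1 the aPD1 tumors were far apart, at 397 and 1742, against 389 and 637 with isotype. CC002F1 went from 468 and 329 to 932 and 835, and CC075F1 from 318 and 385 to 1604 and 791. The groups overlapped through CC001F1 alone: the other 5 aPD1 tumors lay above all 6 isotype tumors. The difference was 2.49-fold (1.53 to 4.07, DESeq2 adjusted p = 0.0111). Il1rn, with 559 to 1966 with isotype and 950 to 3570 with aPD1, differed by 2.07-fold (1.26 to 3.39) and did not pass (adjusted p = 0.0640). It went from 910 and 702 to 3570 and 2151 in CC075F1, and from 1304 and 1966 to 950 and 2511 in CC001F1.

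Of the inflammasome genes, Nlrp3 went from 374 to 513 normalized counts with isotype (median 406) to 463 to 887 with aPD1 (median 658), a 1.52-fold difference (1.26 to 1.84, DESeq2 adjusted p = 0.00226). The only aPD1 tumor within the isotype range was CC001F1 replicate 1, at 463. Casp4 went from 773 to 955 (median 827) to 838 to 1383 (median 1177), or 1.38-fold (1.18 to 1.61, adjusted p = 0.00501), and again CC001F1 replicate 1 was the aPD1 tumor inside the isotype range. Casp1 had 1135 to 1657 with isotype and 1470 to 1872 with aPD1, a difference of 1.21-fold (1.09 to 1.34, adjusted p = 0.0102). Gsdmd, at 1393 to 2193 and 1732 to 1993, differed by 1.15-fold (0.994 to 1.32, adjusted p = 0.348). The highest Gsdmd value of all tumors, 2193, was CC075F1 isotype replicate 2, and without that library Gsdmd passed as well (adjusted p = 0.0109).

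**Figure D2:**
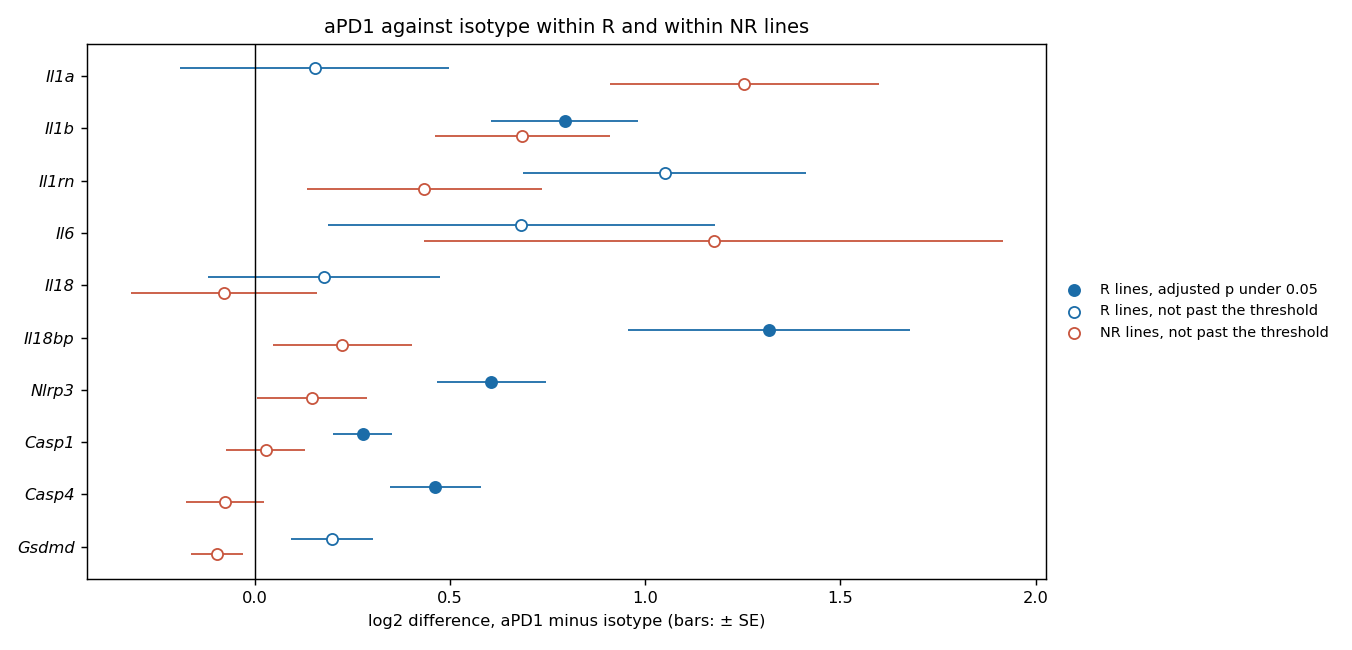
Log2 difference between aPD1 and isotype tumors (x axis, bars are ± SE) for each gene, fitted separately within the R and the NR lines. In R lines Il18bp, Il1b, Nlrp3, Casp4 and Casp1 are filled (adjusted p under 0.05), and no gene is filled for NR lines.

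For none of the 10 genes did every R aPD1 tumor lie above every R isotype tumor, a separation seen in 0.611% of tested genes. Without CC001F1 aPD1 replicate 1 or without CC001F1 isotype replicate 2, Il1rn passed as well, and without CC075F1 isotype replicate 2 Gsdmd did. Without the other CC001F1 aPD1 tumor, CC075F1 isotype replicate 1, CC075F1 aPD1 replicate 1 or CC002F1 isotype replicate 2, Il18bp and Casp1 did not pass. Il1b, Nlrp3 and Casp4 passed with each of the 12 libraries left out. The share of all genes that rose in each of these fits is not given here. Deep libraries alone gave 6 members (Il1rn added), where 5.39% of genes rose. By edgeR none of the members, and 0% of all genes, rose at an adjusted p under 0.05. At an unadjusted p under 0.05 edgeR had 6 members and 2621 genes, and the lowest adjusted p of a member was 0.0697, for Il18bp and Nlrp3. The summed level of 7 neutrophil markers was 404 to 537 in R isotype and 500 to 1752 in R aPD1 tumors, with Ly6g at 0 in both groups. Most of that sum was Csf3r, a granulocyte growth factor receptor gene, which averaged 468 over all tumors against at most 21.2 for any other gene of the list and was the only one of the 7 that passed in R lines (1.03 ± 0.32 on the log2 scale, DESeq2 adjusted p = 0.0345). The 8 macrophage markers summed to 64167 to 123078 (median 108495) and 102986 to 168235 (median 109266), and 6 T and NK cell markers to 1471 to 3017 and 1324 to 7460. In each of these 3 lists CC001F1 aPD1 replicate 1 was the lowest of the R aPD1 tumors (500, 102986 and 1324). In the neutrophil list CC075F1 aPD1 replicate 2 was almost as low (501), although it had the highest Il1b of all tumors (850). The part of these cells in the differences was not tested.

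In NR lines no member passed. DESeq2 called 0 of 10 in either direction, where 0.0448% of genes passed. By edgeR 0 passed. Il1a had 11.4 to 63.0 normalized counts with isotype (median 35.0) and 47.8 to 174 with aPD1 (median 69.4), 2.38-fold (1.49 to 3.81, DESeq2 adjusted p = 0.190). In each of the 3 NR lines every aPD1 tumor was above both isotype tumors: 78.6 and 174 against 63.0 and 53.0 in CC036F1, 52.5 and 69.4 against 11.4 and 19.8 in CC079F1, and 47.8 against 31.6 and 38.4 in CC080F1. How many of all genes had this order was not counted. Il1b had 169 to 274 with isotype and 157 to 634 with aPD1, 1.61-fold (1.19 to 2.18, adjusted p = 0.442). It was higher in CC036F1 (362 and 634 against 189 and 237) and CC079F1 (508 and 345 against 261 and 274), while the single CC080F1 aPD1 tumor, at 157, lay below both isotype tumors (197 and 169). When that tumor, which had the highest B cell marker sum, was left out, Il1a and Il1b passed, where 1.58% of all genes passed. The same 2 members passed without the line, where 2.02% of genes passed.

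Il1rn in NR lines followed CC036F1, where 765 and 1248 with isotype stood against 2236 and 2518 with aPD1. In CC079F1 it was 766 and 815 against 725 and 930, and in CC080F1 906 and 517 against 596. The fitted difference was 1.35-fold (0.897 to 2.04). Il6 was also highest in the CC036F1 aPD1 tumors, at 21.83 and 19.97 normalized counts (35 and 33 counts). With isotype that line had 2.17 and 3.54. The next highest NR tumor, CC080F1 isotype replicate 2, was at 12.8, which rests on 5 counts in a shallow library. The NR estimates for the inflammasome genes were small: 1.11-fold for Nlrp3 (0.914 to 1.34), 1.02-fold for Casp1 (0.888 to 1.17), 0.948-fold for Casp4 (0.829 to 1.08) and 0.935-fold for Gsdmd (0.854 to 1.02). Il18bp was 1.17-fold (0.918 to 1.49), at 245 to 466 with isotype and 257 to 490 with aPD1. Il18 was 0.947-fold (0.685 to 1.31). The neutrophil markers summed to 225 to 471 in NR isotype and 309 to 618 in NR aPD1 tumors, and the macrophage markers to 53412 to 112013 and 72957 to 98684.

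Whether the aPD1 difference itself was unequal between classes was tested as an interaction of class and antibody. DESeq2 called 0 of 10 members, where 0.0342% of genes passed. By edgeR 0 passed. Casp4 was closest: its aPD1 to isotype ratio was 1.46-fold larger in R than in NR lines (1.18 to 1.81, adjusted p = 0.239). For Il18bp that factor was 2.14 (1.20 to 3.81, adjusted p = 0.505), for Nlrp3 1.39 (1.05 to 1.83), for Gsdmd 1.24 (1.04 to 1.47) and for Casp1 1.20 (1.01 to 1.42). Il1a went the other way, at 0.468 (0.239 to 0.918), and Il1b was at 1.09 (0.714 to 1.66). Casp4 and Il18bp passed without CC001F1 aPD1 replicate 1, and Gsdmd passed without CC075F1 isotype replicate 2. The shares of all genes that passed in these fits are not given here.

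**Figure D3:**
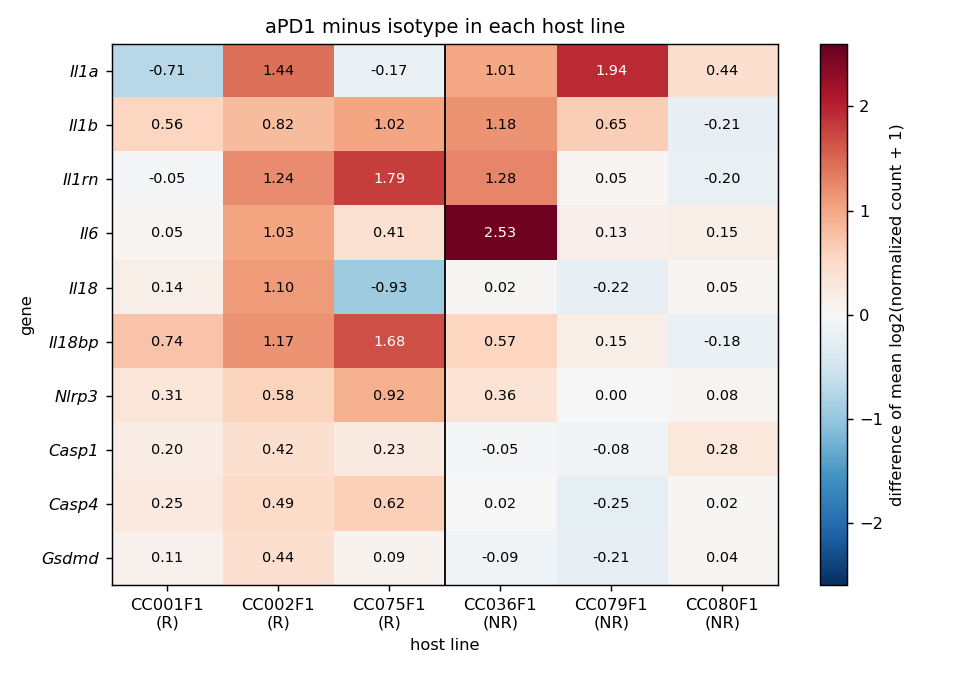
Difference between aPD1 and isotype tumors in mean log2(normalized count + 1) for each gene (rows) in each host line (columns), R lines on the left. Il18bp and Nlrp3 are highest in CC075F1 (1.68 and 0.92), Il1a is highest in CC079F1 (1.94), and Il1b is negative in CC080F1 alone (-0.21).

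Over all 6 lines together, with line as a term, Il1b, Il18bp and Nlrp3 rose under aPD1, 3 of 10 members where 2.55% of genes rose. Il1b was 1.68-fold higher (1.37 to 2.07, DESeq2 adjusted p = 0.000809), and this call held with each of the 23 libraries left out. In 5 of 6 lines every aPD1 tumor had more Il1b than every isotype tumor of its line, an order not counted over all genes. Il18bp was 1.77-fold higher (1.27 to 2.48, adjusted p = 0.0378) and Nlrp3 1.32-fold (1.13 to 1.53, adjusted p = 0.0265). Il1rn, at 1.71-fold (1.23 to 2.37), had an adjusted p of 0.0507. By edgeR no member passed, where 0.0569% of genes rose, and the edgeR adjusted p of Il1b was 0.0508. Il1rn and Il1a passed as well without CC001F1 aPD1 replicate 1, and Il1rn and Casp1 without CC079F1 aPD1 replicate 1. With any 1 of 8 other libraries left out, Il1b alone passed. How many of all genes rose in these fits is not given here.

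R and NR tumors were then compared under isotype antibody, which asks whether the lines differed before any response to aPD1. No member passed: DESeq2 called 0 of 9 members with an adjusted p, where 5.53% of genes passed. Il1b and Il18bp had an unadjusted DESeq2 p under 0.05, as did 3285 of 24538 fitted genes. By edgeR 0 passed. Il1b had 181 to 444 normalized counts in R and 169 to 274 in NR tumors, 1.39-fold (1.05 to 1.84, DESeq2 adjusted p = 0.161). Il18bp had 318 to 637 against 245 to 466, 1.33-fold (1.03 to 1.73, adjusted p = 0.182). The 4 inflammasome genes had estimates close to 1, at 0.990-fold for Nlrp3 (0.823 to 1.19), 0.979-fold for Casp1 (0.862 to 1.11), 0.981-fold for Casp4 (0.883 to 1.09) and 0.991-fold for Gsdmd (0.856 to 1.15). Il1rn was 1.23-fold (0.792 to 1.90), Il1a 1.41-fold (0.771 to 2.57), Il18 0.906-fold (0.654 to 1.25) and Il6 2.06-fold (0.875 to 4.87). No member had every R tumor above every NR tumor, which held for 0.500% of genes. Il1b passed without CC002F1 isotype replicate 2 and Il18bp without CC080F1 isotype replicate 1.

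Under aPD1, Il18bp, Gsdmd, Casp4 and Nlrp3 were higher in R than in NR tumors. These 4 of 10 members passed in DESeq2, where 5.94% of genes were higher, and none was lower. The median log2 difference of the members was 0.36, against -0.01 over all genes. The R aPD1 tumors are the same as those compared with R isotype above, so both comparisons share them. Il18bp had 397 to 1742 normalized counts in R (median 883) and 257 to 490 in NR tumors (median 339), 2.96-fold (1.84 to 4.76, adjusted p = 0.000391). A single R tumor, CC001F1 replicate 1, lay inside the NR range. Gsdmd had 1732 to 1993 against 1399 to 1755, 1.23-fold (1.11 to 1.36, adjusted p = 0.00144), and the overlap again came from CC001F1 replicate 1 (1732) and from the CC080F1 tumor (1755). Casp4 had 838 to 1383 against 652 to 983, 1.44-fold (1.19 to 1.76, adjusted p = 0.00641). Nlrp3 had 463 to 887 against 442 to 506, 1.38-fold (1.14 to 1.68, adjusted p = 0.0196).

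The cytokines did not pass in this comparison. Il1b was 1.34-fold (0.813 to 2.21, DESeq2 adjusted p = 0.596) and Il1rn 1.45-fold (0.771 to 2.74). Il1a was lower in R tumors by estimate, 0.617-fold (0.382 to 0.999, adjusted p = 0.258), at 35.9 to 80.3 normalized counts against 47.8 to 174. Il18 was 1.23-fold (0.786 to 1.92), Il6 1.21-fold (0.573 to 2.56) and Casp1 1.16-fold (1.01 to 1.34, adjusted p = 0.228). By edgeR, Il18bp (adjusted p = 0.0189) and Gsdmd (0.0281) passed, 2 members where 1.93% of genes were higher. The deep libraries gave the same 2 members where 4.73% of genes were higher. Since tumors of a line are not independent draws of a class, counts were also summed by line, and Il18bp, Casp4 and Nlrp3 then passed, where 4.28% of genes were higher, while Gsdmd did not. Nlrp3 no longer passed without CC036F1 aPD1 replicate 2, CC079F1 aPD1 replicate 1 or the CC080F1 aPD1 tumor. No member had every R aPD1 tumor above every NR aPD1 tumor (2.63% of genes did). The macrophage markers did separate in their sum, at 102986 to 168235 in R and 72957 to 98684 in NR aPD1 tumors, and the T and NK cell markers summed to 1324 to 7460 and 821 to 1569. Of the neutrophil markers, Csf3r was higher (1.35 ± 0.36 on the log2 scale, adjusted p = 0.00466) and S100a9 lower (-2.39 ± 0.62, 0.00405) in R aPD1 tumors. The part of these cells in the member differences was not tested.

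**Figure D4:**
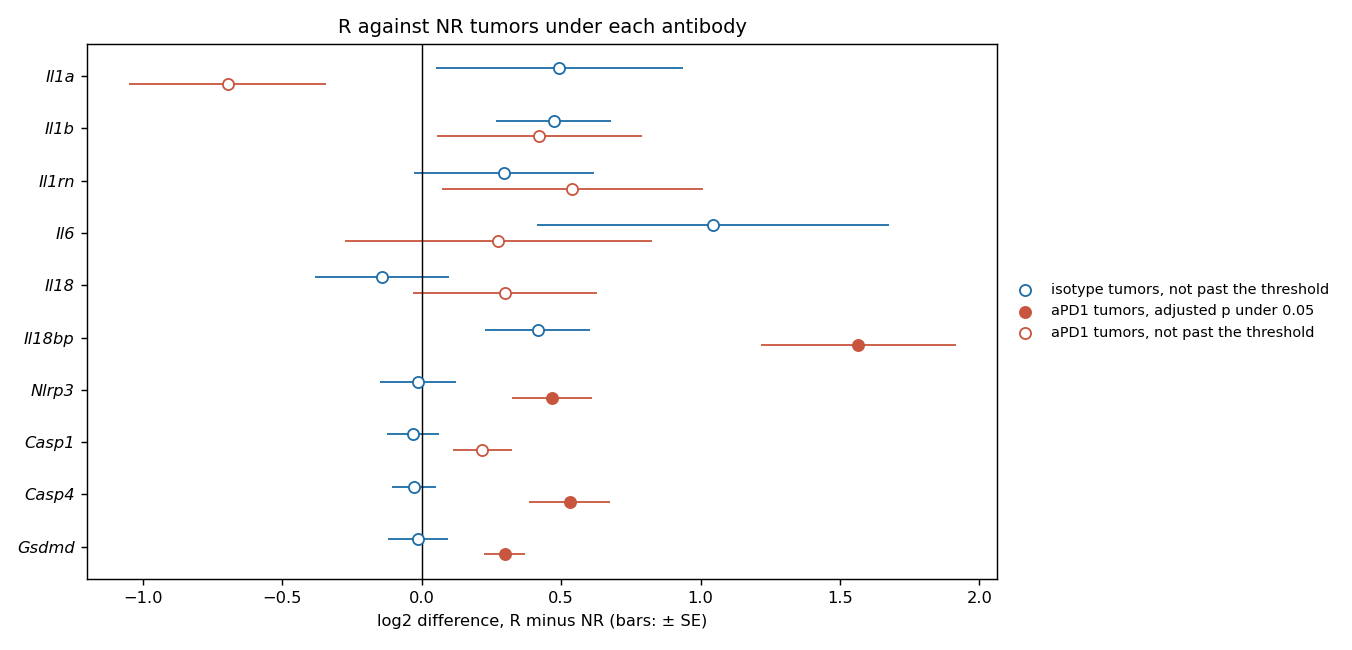
Log2 difference between R and NR tumors (x axis, bars are ± SE) for each gene, fitted separately in isotype and in aPD1 tumors. The 4 inflammasome genes lie between -0.03 and -0.01 under isotype, and Il18bp, Nlrp3, Casp4 and Gsdmd are filled (adjusted p under 0.05) under aPD1.

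When isotype and aPD1 tumors were fitted together, allowing for antibody, Il18bp alone was higher in R tumors, 1.96-fold (1.42 to 2.69, DESeq2 adjusted p = 0.000995). This is 1 of 10 members, where 7.66% of genes were higher. It passed in edgeR too (adjusted p = 0.00741, where 3.88% of genes were higher), and with each of the 23 libraries left out. Casp4, at 1.18-fold (1.04 to 1.35), had an adjusted p of 0.0741, and Il1b, at 1.36-fold (1.06 to 1.76), one of 0.0932. A second member passed without any of 5 libraries, CC001F1 aPD1 replicate 1, CC002F1 isotype replicate 2, CC002F1 aPD1 replicate 2, CC036F1 aPD1 replicate 2 and CC080F1 isotype replicate 1. In those 5 fits 1270 to 1490 of all genes were higher, against 1351 with all libraries.

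Each cytokine was set against its antagonist within the same library, where depth cancels. The ratio of Il18 to Il18bp expected counts was 0.118 to 0.259 in R isotype (median 0.191), 0.0390 to 0.172 in R aPD1 (median 0.104), 0.182 to 0.452 in NR isotype (median 0.232) and 0.125 to 0.337 in NR aPD1 tumors (median 0.225). Under aPD1 it was 2.44-fold lower in R than in NR tumors by geometric mean (two-sided exact permutation p = 0.0368), which did not hold after adjustment over the 10 ratio tests (adjusted p = 0.339). That test took tumors of a line as independent. With 1 mean for each line the exact permutation p was 0.2, where the smallest possible value is 0.1. With deep libraries alone it was 0.127. Both CC075F1 aPD1 tumors were lowest, at 0.0424 and 0.0390, against 0.259 and 0.246 with isotype in that line. The value of 0.0390 rests on 12 Il18 counts in a shallow library. In CC002F1, where Il18 and Il18bp were both higher with aPD1, the ratio was 0.146 and 0.165 with isotype and 0.142 and 0.157 with aPD1. Within R lines aPD1 tumors were 2.13-fold lower (exact permutation p = 0.0741, adjusted p = 0.339). The ratio of Il1b to Il1rn had medians of 0.328 in R isotype, 0.253 in R aPD1, 0.287 in NR isotype and 0.264 in NR aPD1 tumors, and none of its 5 tests had an exact permutation p under 0.5. With deep libraries alone its exact permutation p between R and NR was 0.143 under isotype (adjusted p = 0.357) and 0.619 under aPD1. The difference of its aPD1 effect between R and NR lines was then -1.09 on the log2 scale, against -0.35 with all libraries. For the difference of the aPD1 effect between 3 and 3 lines the smallest possible exact p is 0.1, and the values were 0.4 for Il18 to Il18bp and 0.5 for Il1b to Il1rn.

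**Figure D5:**
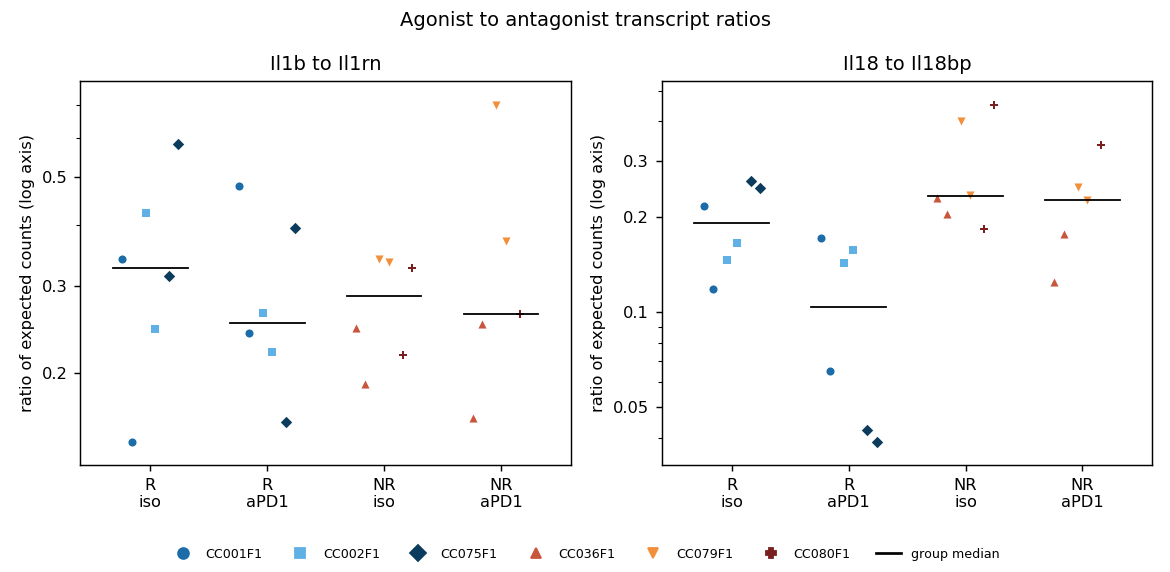
Ratio of expected counts (log axis) of Il1b to Il1rn and of Il18 to Il18bp in each tumor, by class and antibody, with a bar for the group median. The 2 lowest Il18 to Il18bp points are the CC075F1 aPD1 tumors, at 0.0424 and 0.0390, the latter from 12 Il18 counts in a shallow library.

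The rest of the pathway was described with 4 lists. Of 12 other ligands and receptors matched in the matrix, 10 of the interleukin-1 family and the interleukin-6 receptor genes Il6ra and Il6st, 4 were higher and 2 lower in R tumors over all 23. In that comparison 7.66% of all tested genes were higher, and 1197 of 17643 were lower. Il18rap and Il18r1, the subunits of the interleukin-18 receptor, were higher by 0.89 ± 0.13 (SE) and 1.21 ± 0.26 on the log2 scale (DESeq2 adjusted p = 1.68e-09 and 0.000103). Il33, an alarmin cytokine of the family, was lower (-0.97 ± 0.27, adjusted p = 0.00548), and so was the interleukin-36 receptor Il1rl2 (-0.64 ± 0.21, 0.0234). In the signaling list Tollip was lower (-0.10 ± 0.04, 0.0466) and Myd88 higher (0.27 ± 0.09, 0.0174), of which edgeR kept Myd88 (edgeR adjusted p = 0.0363). Between R and NR aPD1 tumors Irak2 (0.52 ± 0.14, DESeq2 adjusted p = 0.00850) and Nfkbia (0.18 ± 0.06, 0.0412) of that list were higher, and edgeR kept neither. Il18rap and Il18r1 were also higher in R isotype tumors (0.91 ± 0.18 and 1.20 ± 0.35, adjusted p = 0.000147 and 0.0197), together with the interleukin-33 receptor Il1rl1 (0.67 ± 0.20, 0.0215), and Il33 was lower there (-0.85 ± 0.26, 0.0309). Under isotype 5.53% of all genes passed in either direction. By edgeR 3 of the 12 passed over all tumors (Il18rap, Il18r1 and Il33), where 1765 of 26342 genes passed, and none under isotype. Under aPD1, where 5.94% of all genes were higher, 3 of the 12 were higher and none lower (Il18rap, Il18r1 and Il6ra). Of these edgeR kept Il18rap, where 1.93% of all genes were higher. The 1 gene of the 12 that rose with aPD1 in R lines was Il6ra (0.32 ± 0.10, DESeq2 adjusted p = 0.0433), so that no interleukin-1 family gene of the list passed there, and none of the 12 passed in NR lines. Over all genes 4.85% rose in R lines, and 0.0448% passed in NR lines. The median log2 difference of the 12 genes was 0.27 in R and 0.40 in NR lines.

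Of 18 other inflammasome and pyroptosis genes, 6 were higher and none lower in R than in NR tumors, both over all tumors and under aPD1. Of all genes, 7.66% and 5.94% were higher in these comparisons. Under aPD1 these included the adaptor Pycard (ASC, 0.89 ± 0.18, DESeq2 adjusted p = 5.20e-05), and the sensors Nlrp1b (1.28 ± 0.26, 5.04e-05), Naip2 (0.54 ± 0.11, 0.000133) and Nlrc4 (1.29 ± 0.34, 0.00391). Over all tumors, Mefv, the sensor pyrin, had 1.11 ± 0.22 (adjusted p = 4.21e-05), Nlrc4 1.01 ± 0.23 (0.000458) and Pycard 0.61 ± 0.15 (0.000862). Under isotype, where 5.53% of all genes passed, 1 was higher (Mefv, 1.20 ± 0.32, 0.0109) and 1 lower (Casp12, -0.35 ± 0.10, 0.0199). By edgeR 5 of the 18 passed over all tumors, 3 under aPD1 (Nlrp1b, Pycard and Naip2) and none under isotype. The edgeR shares of all genes that were higher were 3.88% over all tumors and 1.93% under aPD1. Nlrp1b and the membrane rupture gene Ninj1 were the 2 of 18 that rose with aPD1 in R lines, where 4.85% of all genes rose. Nlrp1b rose by 0.60 ± 0.17 (0.0117). None passed in NR lines, where 0.0448% of all genes passed. The Nlrp1 and Naip genes are families of close copies that differ among mouse strains, so their counts depend on how shared reads were split. By line, 10 of the 18 differed.

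Of 13 signaling genes, 3 rose with aPD1 in R lines and none passed in NR lines. For this list and the next, the shares over all genes were 4.85% rising in R lines and 0.0448% passing in NR lines. The NF-kappa B inhibitor Tnfaip3 (A20) rose by 0.47 ± 0.09 (DESeq2 adjusted p = 3.63e-05) and the kinase Irak2 by 0.59 ± 0.14 (0.00220). The third was Stat3. Of 13 genes known to be induced by interleukin-1 or interleukin-6, 3 rose in R lines: the feedback inhibitor Socs3 (0.81 ± 0.15, 2.60e-05), the NF-kappa B cofactor Nfkbiz (0.49 ± 0.11, 0.00121) and the RNase gene Zc3h12a. None of the 13 passed in NR lines, although their median log2 difference was 0.63 there and 0.30 in R lines. Over all lines Tnfaip3 rose by 0.39 ± 0.06 (2.64e-06), Socs3 by 0.55 ± 0.12 (0.00131), Zc3h12a by 0.28 ± 0.06 (0.00236), Mefv by 0.96 ± 0.22 (0.00342) and Irak2 by 0.39 ± 0.10 (0.0155). In edgeR, no gene of the 4 lists passed in R lines, where 0% of all genes rose. Over all lines Tnfaip3 alone passed (edgeR adjusted p = 0.0116), where 0.0569% of all genes rose.

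The genes whose level followed each member most closely over the 23 tumors are given as a description. They were taken among the genes with a mean of at least 100 normalized counts by Pearson's r of log2(normalized count + 1), and all share the same libraries and class and antibody differences. Il18bp was followed by Samhd1 (0.970), Fxyd5 (0.964) and Irf5 (0.960), and Il1rn by Lgals3 (0.945), Anpep (0.935) and Capg (0.905). Casp4 was followed by Sdc3 (0.918), then by Il18bp itself (0.908), and Trafd1 (0.906). Nlrp3 had Alox5ap (0.859), Ctsb (0.854) and Nckap1l (0.851), Gsdmd had Itm2b (0.829) and Dnase2a (0.821) among its closest, and Casp1 had Tspo (0.823), Mndal (0.803) and Trim5 (0.803). Values were lower for the cytokines: Il18 had Kbtbd7 (0.819), Osgep (0.751) and Mrgprf (0.742), Il1a had Clec10a (0.775), Egr2 (0.752) and Slc7a2 (0.737), and Il1b had Ass1 (0.775), Basp1 (0.773) and Fth1 (0.751). Between members, Il1b and Il1rn had r = 0.704, the neighbours Casp1 and Casp4 had r = 0.665, the neighbours Il1a and Il1b had r = 0.396, and Il18 and Il18bp had r = 0.144 (n = 23 tumors each).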

How the data were processed

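RNA from 23 MC38 tumors was sequenced by the authors as 100 base paired-end poly(A) reads. Per the authors, reads were mapped with Bowtie 1.2.3 to founder strain transcriptomes built from GENCODE vM23 (GRCm38) and quantified with gbrs, and the deposited values are expected counts per gene, of which 16.95% were not whole. They were rounded here. Of 26869 identifiers, 188 had no name in GENCODE vM21. The 10 members and the gene lists were chosen with earlier results of these data known. Il36a, Il36b and Il36rn were not analysed here. One gene among those closest to Gsdmd is not reported here.

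Genes whose counts in the fitted libraries summed to 5 or more were tested with DESeq2 1.42.0, with Benjamini-Hochberg adjustment over all genes and a threshold of 0.05. Terms were antibody for class comparisons over all tumors, host line for antibody comparisons, and class by antibody for the interaction. Tumors of a line enter the class fits as independent, so p-values there measure spread between tumors more than between lines. Intervals are 95% Wald intervals. Ratios were tested by two-sided exact permutation of tumors (within lines for antibody), adjusted over 10 tests. Alternatives were edgeR 4.0.16, TMM scaling, other filters, deep libraries, a replicate block, sums by line, omission of CC080F1 and omission of each library. The genes named from lists are up to 5 per direction with the lowest adjusted p, and where a count was 5 or fewer the remaining genes were named after their values were seen. The fits were tested on simulated data. Promoter windows are from RefSeq (GRCm38.p6).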

Additional observations from a re-analysis of the deposited data

Results flagged for a closer look

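The 10 genes and 2 ratios gave 48 groups of 5 or 6 tumors. In 4 of these 48 groups, 1 tumor lay far from the others by Dixon's criterion, which chance meets in about 1 in 20 groups. Il1a reached 174.269 normalized counts in CC036F1 aPD1 replicate 2, the highest of the NR aPD1 tumors. Il6 was at 12.8041 in CC080F1 isotype replicate 2, which rests on 5 counts. Il18bp was at 465.641 in CC080F1 isotype replicate 1, the highest of the NR isotype tumors, and without that tumor Il18bp passed between R and NR isotype tumors. Casp4 was at 955.092 in CC001F1 isotype replicate 2, the highest of the R isotype tumors.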

How the results depend on the processing

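The number of members passing changed with the tool. By edgeR it was 2 between R and NR aPD1 tumors, 0 for aPD1 in R lines, 0 for aPD1 over all lines and 1 among host lines, and with deep libraries alone it was 2 between R and NR aPD1 tumors and 1 among host lines. Of 13 member results that passed in comparisons of class or antibody, edgeR kept 3 and deep libraries 10, and of the 2 among host lines each kept 1, Il1b. For the 13, TMM scaling, no filter, the other filter and the replicate block each kept 13. Without the line CC080F1, 2 members passed for aPD1 in NR lines. The cause of these changes was not tested. With 1 library left out, the count was 1 to 2 between R and NR tumors, 0 to 1 under isotype, 3 to 4 under aPD1, 3 to 6 for aPD1 in R lines, 0 to 2 in NR lines, 1 to 5 over all lines, 0 to 2 for the interaction and 1 to 4 among lines. These ranges were not set against the share of all genes in the same fits. The log2 difference of the Il1b to Il1rn ratio ran from -0.41 to 0.026 for aPD1 in R lines and from -0.40 to 0.13 between R and NR aPD1 tumors.

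The directions that turned were all of members that had not passed. Between R and NR tumors Il1a was at 0.0016 with sums by line and ran from -0.27 to 0.15 with 1 library left out. Under isotype, deep libraries gave -0.21 for Il1rn and 0.084 for Nlrp3, and sums by line 0.0085 for Nlrp3, while leaving out 1 library gave -0.23 to 0.033 for Il18, -0.11 to 0.054 for Nlrp3, -0.10 to 0.013 for Casp1, -0.068 to 0.0017 for Casp4 and -0.12 to 0.031 for Gsdmd. For aPD1 in R lines it gave -0.094 to 0.32 for Il1a and -0.0013 to 0.39 for Il18. In NR lines Casp1 was at -0.047 with deep libraries and -0.055 without CC080F1, and leaving out 1 library gave -0.17 to 0.034 for Il18 and -0.054 to 0.099 for Casp1. Over all lines Il18 ran from -0.030 to 0.16. The interaction of Il1b was -0.15 without CC080F1 and ran from -0.15 to 0.33 with 1 library left out.

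Same-numbered tumors did not deviate together (r over 0.1 in 14 of 55 pairs of groups, -0.404 to 0.368), so the replicate numbers were not taken as a pairing, and with the replicate block the counts were 1, 0, 4, 5, 0, 3, 0 and 2 in the order above. Il6, at 1 to 35 counts a tumor, was limited by depth, and Il6 under isotype had no value with the stricter filter.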
